A study of Mus musculus with 18 samples.

Results

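Polycomb repressive complex 2 (PRC2) and its partners are described here by 9 genes, which are Ezh1, Ezh2, Eed, Suz12, Jarid2, Mtf2, Phf19, Cbx7 and Rnf2. They are 9 of the 18193 genes that the arrays measured with a probe set of a single gene symbol, and all 32 probe sets annotated to a single one of these symbols were used. The data are 18 Affymetrix expression arrays of mouse pluripotent cell lines, with 3 arrays for each of 6 lines. The induced pluripotent stem (iPS) lines were IP14D-1, IP20D-3 and IP36D-3, all of the label B6 x D2 F1, and IP14D-101, of the label B6 x 129S2 F1. The embryonic stem (ES) lines were R1, of the label 129X1/SvJ x 129S1 F1, and ESC2, of the label B6 x D2 F1. According to the series' design text the iPS lines were made from embryonic fibroblasts, which were not analysed here. All lines grew with the cytokine LIF on fibroblast feeder cells that mitomycin C had arrested, in medium with serum or a serum replacement. Which medium a given line had is not labelled, and neither is the origin of its 3 arrays in different dishes or passages. P-values between lines therefore measure the spread between these arrays, which may be technical, and each line is a single line of its kind. ESC2 is the ES line that shares its strain label with 3 of the iPS lines, and the comparisons with it were taken as the main ones.

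PRC2 places methyl groups on lysine residues of histone H3 (the H3K27 mark) and holds developmental regulators in a silent state. Ezh1 and Ezh2 are its alternative catalytic subunits, Eed binds the finished mark and stimulates the enzyme, and Suz12 is the scaffold on which the complex is built. Jarid2, Mtf2 and Phf19 are accessory subunits that guide the core to CpG-rich promoters. Cbx7 and Rnf2 belong to the partner complex PRC1, in which Cbx7 reads the H3K27 mark and Rnf2 ubiquitylates histone H2A. Mouse ES cells are known to keep silent differentiation genes under this mark and to grow without PRC2, while they need it to differentiate properly.

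Promoter sequences of 4 members are printed because their levels split in the ways described below. Ezh1 and Ezh2 are alternative enzymes whose levels ran in different orders over the lines. Suz12 and Mtf2 were picked because their brightest probe sets ran most alike of all pairs of members. Each sequence is a RefSeq window of 300 bases, from 250 bases before to 50 bases after an annotated start, on assembly GRCm38.p6. The windows are chr11:101226414-101226713 on the minus strand for Ezh1, chr6:47594981-47595280 on the minus strand for Ezh2, chr11:79992856-79993155 on the plus strand for Suz12, and chr5:108065424-108065723 on the plus strand for Mtf2. Mtf2 has a further window downstream that is not printed. Capitals mark exact matches, on either strand, to 4 short motifs. These were an E2F site (TTCCCGC or TTGGCGC or TTCGCGC or TTGCCGC), the CCAAT box, the GC box (GGGCGG) and the NRF1 core (TGCGCA). No 2 of the marked matches overlap.
Ezh1: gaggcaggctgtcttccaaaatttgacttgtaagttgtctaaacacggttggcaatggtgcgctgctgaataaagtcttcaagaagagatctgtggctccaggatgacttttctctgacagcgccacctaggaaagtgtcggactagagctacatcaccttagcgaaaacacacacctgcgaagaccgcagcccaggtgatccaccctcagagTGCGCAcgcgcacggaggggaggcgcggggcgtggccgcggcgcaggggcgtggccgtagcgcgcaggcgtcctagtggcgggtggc
Ezh2: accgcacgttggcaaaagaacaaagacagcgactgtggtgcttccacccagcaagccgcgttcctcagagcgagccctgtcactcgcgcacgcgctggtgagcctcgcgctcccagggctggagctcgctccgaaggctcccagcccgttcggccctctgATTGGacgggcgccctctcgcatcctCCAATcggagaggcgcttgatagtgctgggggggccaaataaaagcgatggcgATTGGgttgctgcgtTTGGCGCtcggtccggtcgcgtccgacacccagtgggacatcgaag
Suz12: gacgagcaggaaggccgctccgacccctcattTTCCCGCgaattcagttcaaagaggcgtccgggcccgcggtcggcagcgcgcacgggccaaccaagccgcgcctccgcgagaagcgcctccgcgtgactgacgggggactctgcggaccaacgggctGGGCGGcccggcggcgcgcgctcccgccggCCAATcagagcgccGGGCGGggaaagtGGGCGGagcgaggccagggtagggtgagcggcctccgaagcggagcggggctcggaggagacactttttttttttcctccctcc
Mtf2: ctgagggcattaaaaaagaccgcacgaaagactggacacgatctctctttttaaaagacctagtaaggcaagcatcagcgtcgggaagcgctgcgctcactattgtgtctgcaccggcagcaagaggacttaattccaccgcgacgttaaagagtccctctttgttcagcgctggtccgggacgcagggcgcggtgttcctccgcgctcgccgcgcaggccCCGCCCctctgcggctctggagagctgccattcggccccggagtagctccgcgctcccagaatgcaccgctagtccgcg
Ezh2 held 1 E2F match, which lies at window positions 255 to 261, and 3 CCAAT boxes. Suz12 held 1 E2F match at positions 33 to 39, 1 CCAAT box and 3 GC boxes. Ezh1 held 1 NRF1 core and Mtf2 held 1 GC box. Over the 11 windows of the 9 members, 3 held an E2F match (27.3%), against 9.57% of all 32851 windows of the same length. CCAAT boxes and GC boxes were each in 7 of 11 windows (63.6%), against 37.4% and 35.7% of all windows. The NRF1 core was in 2 of 11 (18.2%), against 7.76% of all. The members' windows had a median GC content of 64.3% and 30 CpG dinucleotides, against 52.7% and 7 in all windows. These letter matches describe the windows and do not show that a factor binds there.

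Values below are log2 of the deposited probe set intensity, with a median of 4.92 over the means of all probe sets, and a difference is a difference of log2 values. Of a gene's probe sets the brightest on average stands for it, and a difference was called at an adjusted p under 0.05. Levels of different genes were not set against each other, because probe sets differ in how strongly they bind. Of the 32 probe sets, 21 had a mean of at least 6 and 5 lay under the median. The 13 pluripotency markers were above the array median in every line, with mean levels between 10.87 in ESC2 and 11.60 in IP14D-101. The summed linear level of 29 fibroblast markers ranged over the arrays from 6983 to 7387 in IP14D-1, 3740 to 4098 in IP14D-101, 3424 to 3638 in IP20D-3, 3104 to 3281 in IP36D-3, 7868 to 8593 in R1 and 4666 to 5189 in ESC2, and 10 to 21 of the 29 were under the array median. A few bright genes weigh heavily in such a sum, such as Tagln, at 12.01 in R1 and 10.16 in ESC2. By mean log2 level the 29 stood at 5.85 in IP14D-1, 5.19 in IP14D-101, 4.74 in IP20D-3, 4.97 in IP36D-3, 5.57 in R1 and 5.62 in ESC2. R1 was thus highest by the sum but not by the mean. The 14 primitive endoderm markers averaged 7.83 in IP14D-101 and 5.56 to 6.14 in the other lines. The ratio of 3' to 5' actin probe sets, a sign of RNA integrity, averaged 1.27 in IP14D-1, 1.14 in IP14D-101, 1.28 in IP20D-3, 1.26 in IP36D-3, 1.13 in R1 and 1.53 in ESC2. It sets ESC2 apart from all other lines, and R1 and IP14D-101 apart from the other iPS lines at the low end. The 18S ribosomal RNA signal, in linear intensity, was 71.7 to 88.5 in IP14D-1, 37.8 to 46.5 in IP14D-101, 178.3 to 539.5 in IP20D-3, 160.6 to 242.3 in IP36D-3, 50.5 to 60.2 in R1 and 203.1 to 230.1 in ESC2. Array 3 of IP14D-101 stood apart from arrays 1 and 2 of its line, with a limma quality weight of 0.295 beside 1.7 and 0.838. Whether feeder cells, endoderm-like cells or RNA integrity had a part in any difference below was not tested.

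Over the 6 lines, 8 of the 9 members differed by the F test of limma, against 77.3% of all genes and 97.5% of the 8958 genes with a mean of at least 6. The exception was Jarid2, on its representative probe set. None of the 9 representative probe sets differed from ESC2 by 2-fold or more in any line, a size that 3.44% of all genes reached and passed the test with in IP14D-1, 8.73% in IP14D-101, 8.6% in IP20D-3, 3.38% in IP36D-3 and 8.13% in R1. Their largest differences between lines ran from 0.21 for Jarid2 to 0.92 for Ezh1, beside a median of 0.64 over all genes and 0.87 over genes with a mean of at least 6.

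**Figure D1:**
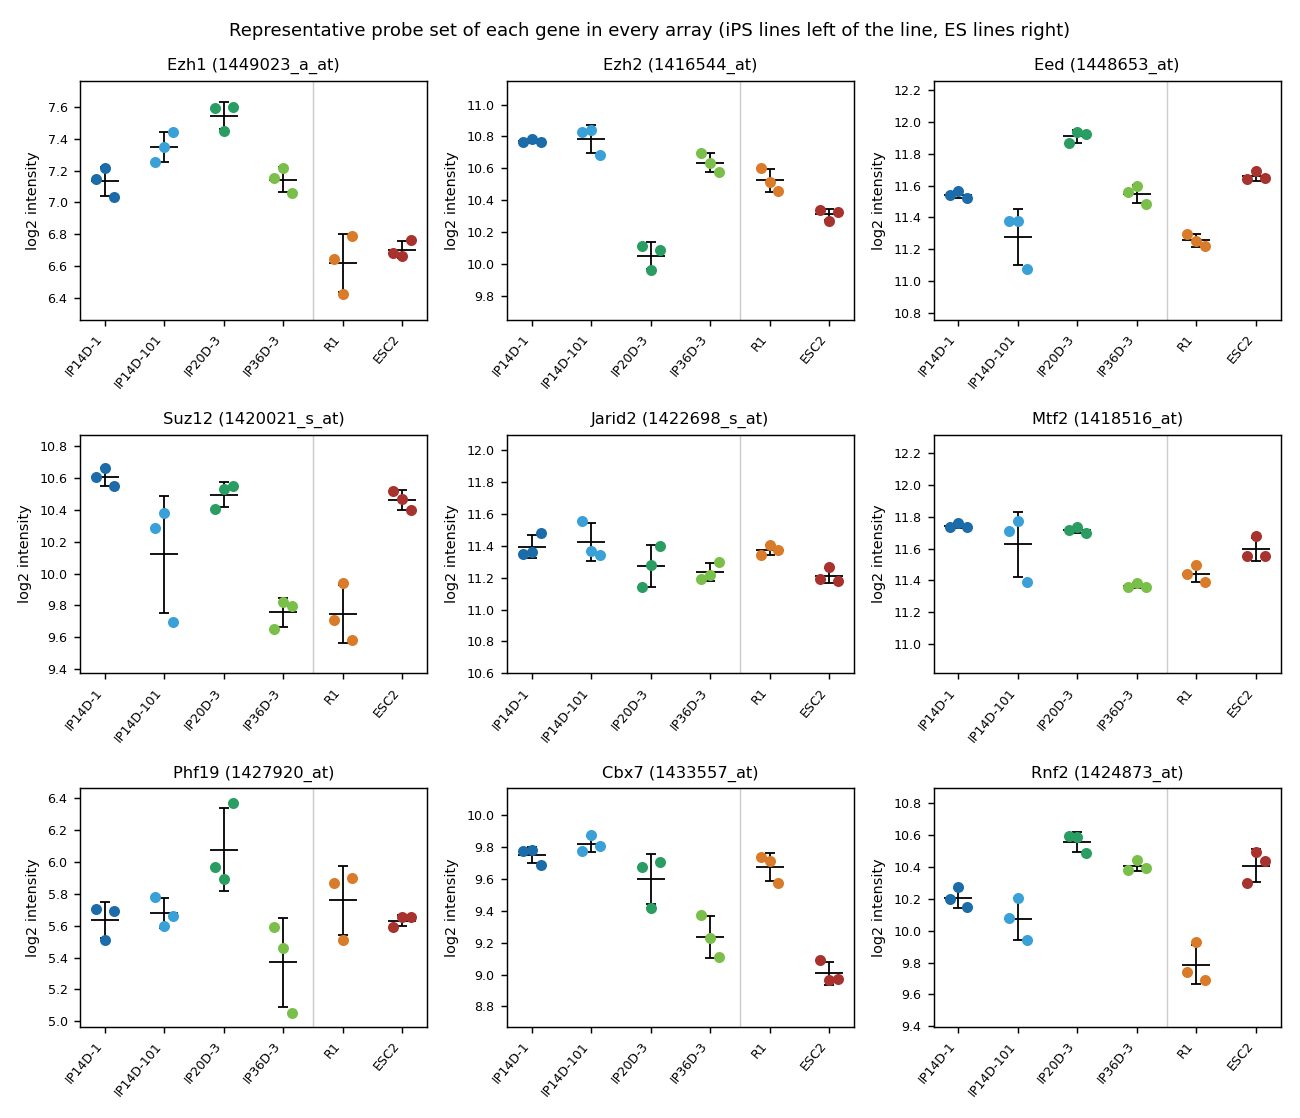
Log2 intensity of the representative probe set of each of the 9 genes in every array (points, 3 per line), with the line mean and SD in black. The 4 iPS lines stand left of the grey line and the ES lines R1 and ESC2 right of it. Ezh1 is higher in each iPS array than in each ES array, while the other 8 genes overlap between iPS and ES arrays.

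Ezh1 encodes the catalytic subunit that is usually linked to non-dividing cells. It was higher in all 4 iPS lines than in both ES lines. Its arrays read 7.15, 7.21 and 7.03 in IP14D-1, 7.25, 7.35 and 7.44 in IP14D-101, 7.59, 7.45 and 7.60 in IP20D-3 and 7.15, 7.22 and 7.06 in IP36D-3. They read 6.65, 6.43 and 6.79 in R1 and 6.68, 6.66 and 6.76 in ESC2. The lowest iPS array therefore lay above the highest ES array. Against ESC2 the difference was 0.43 ± 0.09 (SE) in IP14D-1 (adjusted p = 0.00171), 0.65 in IP14D-101 (adjusted p = 1.81e-05), 0.84 in IP20D-3 (adjusted p = 9.02e-07) and 0.44 in IP36D-3 (adjusted p = 0.00131). R1 did not differ from ESC2 beyond the spread (-0.08, 95% interval -0.28 to 0.12). Against R1, all 4 iPS lines were called as well, by 0.51 to 0.92. In the order of levels, IP20D-3 stood first, then IP14D-101, from which it did not differ (adjusted p = 0.0898). IP36D-3 and IP14D-1 followed with line means of 7.14 and 7.13, which did not differ (adjusted p = 0.938), and IP14D-101 did not differ from IP36D-3 either (adjusted p = 0.0932). As bulk RNA was measured, fewer cells with a transcript and less transcript per cell cannot be told apart, here or in any result that follows.

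A second Ezh1 probe set, 1418290_a_at, gave the same separation at a lower level. It averaged 5.98 ± 0.050 in IP14D-1, 6.50 ± 0.18 in IP14D-101, 6.54 ± 0.16 in IP20D-3 and 6.51 ± 0.12 in IP36D-3, against 5.81 ± 0.16 in R1 and 5.66 ± 0.083 in ESC2 (SD, n = 3 arrays each). All 4 differences from ESC2 were called, from 0.32 in IP14D-1 to 0.88 in IP20D-3. Against R1, IP14D-1 did not pass (0.17, adjusted p = 0.249), and it was the lowest iPS line on this probe set. The remaining Ezh1 probe sets lay near 2.9 in every line, under the array median, and carry little weight.

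Ezh2, the catalytic subunit of dividing cells, was measured by 1 probe set and did not follow Ezh1. It read 10.76, 10.78 and 10.77 in IP14D-1, 10.83, 10.84 and 10.68 in IP14D-101, 10.11, 9.96 and 10.09 in IP20D-3 and 10.70, 10.63 and 10.58 in IP36D-3. The ES arrays read 10.60, 10.51 and 10.46 in R1 and 10.34, 10.27 and 10.32 in ESC2. IP20D-3 was the lowest line and the other 3 iPS lines were above ESC2 in every array. Compared with ESC2, Ezh2 was higher by 0.46 in IP14D-1 (adjusted p = 0.000103), 0.47 in IP14D-101 (adjusted p = 4.03e-05), 0.33 in IP36D-3 (adjusted p = 0.0023) and 0.21 in R1 (adjusted p = 0.0244), and lower in IP20D-3 (-0.26, adjusted p = 0.00942). The last of these lost its call without array 2 of IP20D-3 (adjusted p = 0.0535), and the call in R1 was lost in 3 of the fits that left out an array (adjusted p up to 0.099). IP20D-3 was also lower than R1 (-0.47) and than each of the other iPS lines (by 0.58 to 0.73 on the log2 scale). From the top, the order was IP14D-101, IP14D-1, IP36D-3 and R1, and neighbours among these lines did not differ (adjusted p = 0.921, 0.184 and 0.242). So the line with the highest Ezh1 had the lowest Ezh2, while across the 6 line means the correlation of both genes was near 0 (Pearson r = -0.10, 6 lines, given as a description).

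Eed, the subunit that reads the mark, was highest in IP20D-3 and lowest in R1 and IP14D-101. Its arrays read 11.54, 11.56 and 11.52 in IP14D-1, 11.37, 11.38 and 11.07 in IP14D-101, 11.86, 11.94 and 11.93 in IP20D-3 and 11.56, 11.60 and 11.48 in IP36D-3. In the ES lines they read 11.30, 11.25 and 11.22 in R1 and 11.64, 11.69 and 11.65 in ESC2. Relative to ESC2, Eed was higher in IP20D-3 (0.25 ± 0.08, adjusted p = 0.02) and lower in IP14D-101 (-0.38, adjusted p = 0.000755) and R1 (-0.40, adjusted p = 0.000483). IP14D-1 and IP36D-3 did not pass (adjusted p = 0.307 and 0.334). The rise in IP20D-3 was not called in 4 of the 18 fits that left out an array, with adjusted p up to 0.0596. R1 and IP14D-101 did not differ from each other (0.02, adjusted p = 0.92). A second Eed probe set lay at 3.16 to 4.21, under the array median, and was also highest in IP20D-3.

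Suz12, the scaffold subunit, split the lines into those near ESC2 and those below it. It read 10.61, 10.66 and 10.55 in IP14D-1, 10.28, 10.38 and 9.70 in IP14D-101, 10.41, 10.53 and 10.55 in IP20D-3 and 9.65, 9.82 and 9.80 in IP36D-3. In R1 it read 9.71, 9.94 and 9.58, and in ESC2 10.52, 10.47 and 10.40. All arrays of IP36D-3 and R1 were below all arrays of ESC2, IP14D-1 and IP20D-3. Suz12 was lower than in ESC2 by a log2 difference of -0.71 ± 0.14 in IP36D-3 (adjusted p = 0.000506) and -0.72 ± 0.14 in R1 (adjusted p = 0.000261). IP14D-1 (0.14) and IP20D-3 (0.03) did not differ from ESC2 (adjusted p = 0.473 and 0.879). IP14D-101 was called lower (-0.34, adjusted p = 0.0456), but its array 3 decided this: without that array the difference was -0.13 with adjusted p = 0.328, and the call was lost in 13 of the 18 fits that left out an array. Probe sets 1427253_s_at and 1452364_at gave the same order of lines to within their spread, with Pearson r of 0.996 and 0.983 with the representative over 6 line means. On both of them IP36D-3 and R1 were again called lower than ESC2. Of the 3 dimmer Suz12 probe sets, each had IP36D-3 lowest, but on none was R1 called below ESC2 (adjusted p = 0.374, 0.808 and 0.944). On 1449661_at, for example, IP36D-3 averaged 4.88, R1 5.82 and ESC2 5.84, so the fall in R1 rests on the 3 brighter probe sets.

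Jarid2, which joins PRC2 to nucleosomes that PRC1 has marked, varied least. Its line means ran from 11.42 in IP14D-101 to 11.21 in ESC2, and the arrays of IP14D-1, IP14D-101 and IP20D-3 overlapped those of R1, while those of IP36D-3 lay just below. The F test did not call it (adjusted p = 0.117). The single called difference from ESC2 was that of IP14D-101 (0.21, adjusted p = 0.0444), and it was not called in 11 of the 18 fits that left out an array. A second probe set, 1422697_s_at, correlated with it (r = 0.94 over 6 line means), while 1450710_at did not follow the order (r = 0.15). The F test did call these other probe sets, with adjusted p = 0.0355 for 1422697_s_at and 0.0466 for 1450710_at.

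Mtf2, an accessory subunit that binds unmethylated CpG DNA, was close to the ESC2 level on its brightest probe set. The line means were 11.74 ± 0.015 in IP14D-1, 11.63 ± 0.21 in IP14D-101, 11.72 ± 0.020 in IP20D-3, 11.37 ± 0.016 in IP36D-3, 11.44 ± 0.055 in R1 and 11.59 ± 0.072 in ESC2 (SD, n = 3 each). The arrays of IP36D-3, at 11.36, 11.38 and 11.36, were the lowest as a set, and array 3 of IP14D-101, at 11.39, was far below the 11.71 and 11.77 of arrays 1 and 2. No line was called against ESC2, and IP36D-3 came nearest (-0.23, adjusted p = 0.0535, which became 0.0118 when array 3 of IP14D-101 was left out of the shared estimate of spread). Mtf2 was lower in IP36D-3 than in the other 3 iPS lines: IP14D-1 exceeded IP36D-3 by 0.38 (adjusted p = 0.00243), IP14D-101 by 0.26 (adjusted p = 0.0244) and IP20D-3 by 0.35 (adjusted p = 0.00495). The call against IP14D-101 was lost in 5 of the fits that left out an array, with adjusted p up to 0.12. IP36D-3 was thus the lowest line for both Suz12 and Mtf2 among the iPS lines. Over the 6 line means Suz12 and Mtf2 correlated with Pearson r = 0.92, and over the 18 arrays with r = 0.91, on their representative probe sets. Over line means this was the highest r among all pairs of members, so the pair was picked by its value. Jarid2 and Cbx7 reached much the same r (0.92), and the lowest was that of Ezh2 and Eed (-0.76). Array 3 of IP14D-101 was low for both genes.

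The other Mtf2 probe sets did not all tell the same story. On 1418514_at, with line means of 10.01 to 10.62 in the iPS lines, IP14D-1, IP14D-101 and IP20D-3 were called above ESC2 (by 0.66, 0.64 and 0.45) and IP36D-3 was not (0.05, adjusted p = 0.793). On 1445151_at, a dimmer probe set, the lines differed far more. It averaged 5.93 in IP14D-1, 5.86 in IP14D-101, 6.92 in IP20D-3, 6.29 in IP36D-3, 5.24 in R1 and 6.89 in ESC2. R1 was below ESC2 there (-1.66 ± 0.14, adjusted p = 3.57e-08), as were IP14D-101 (-1.03), IP14D-1 (-0.96) and IP36D-3 (-0.60), all called, with IP20D-3 at the ESC2 level. Of the remaining Mtf2 probe sets, 1418515_at followed the representative (r = 0.955), with IP14D-1 above ESC2 (0.39) and IP36D-3 below it (-0.42), both called. On 1449115_at R1 was lower than ESC2 (-0.58), and 1459811_at lay under the array median. The correlation of 1445151_at with the representative was 0.33 over 6 line means. Where the probes lie in the transcripts was not used here, so whether these probe sets read different transcript forms was not tested.

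Phf19, a further accessory subunit of the same family as Mtf2, lay near the array median. Its arrays read 5.70, 5.51 and 5.69 in IP14D-1, 5.78, 5.60 and 5.66 in IP14D-101, 5.97, 5.89 and 6.37 in IP20D-3 and 5.59, 5.46 and 5.05 in IP36D-3, against 5.87, 5.51 and 5.90 in R1 and 5.59, 5.65 and 5.65 in ESC2. IP20D-3 was higher than ESC2 (0.45 ± 0.14, adjusted p = 0.0176), and its array 3 carried much of this, since the difference was 0.30 (adjusted p = 0.117) without it. Leaving out array 1 of ESC2 also ended the call (0.43, adjusted p = 0.0537). No other line was called against ESC2. Its second probe set did not share the rise in IP20D-3 (-0.17, adjusted p = 0.287).

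Cbx7, the main reader of the H3K27 mark in PRC1 of ES cells, was lowest in ESC2. Its arrays read 9.78, 9.78 and 9.69 in IP14D-1, 9.78, 9.88 and 9.81 in IP14D-101, 9.68, 9.42 and 9.71 in IP20D-3 and 9.37, 9.23 and 9.11 in IP36D-3. They read 9.74, 9.72 and 9.58 in R1 and 9.09, 8.96 and 8.97 in ESC2. No array of another line was as low as those of ESC2. The difference from ESC2 was 0.74 ± 0.09 in IP14D-1 (adjusted p = 6.15e-06), 0.81 in IP14D-101 (adjusted p = 9.53e-07), 0.59 in IP20D-3 (adjusted p = 3.83e-05) and 0.67 in R1 (adjusted p = 8.93e-06). IP36D-3 lay between, 0.23 above ESC2 (adjusted p = 0.0659, and 0.0348 without its array 3) and below R1 (-0.44, adjusted p = 0.000774). The other iPS lines did not differ from R1 (adjusted p = 0.359 to 0.602).

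A second Cbx7 probe set, 1420039_s_at, placed IP36D-3 at the other end. There the iPS lines averaged 7.94 ± 0.062 in IP14D-1, 7.79 ± 0.15 in IP14D-101, 7.95 ± 0.083 in IP20D-3 and 8.11 ± 0.067 in IP36D-3, against 7.58 ± 0.17 in R1 and 7.02 ± 0.067 in ESC2 (SD, n = 3 each). Every line was called above ESC2, from 0.56 in R1 to 1.09 in IP36D-3, the single member probe set with a rise of 2-fold or more over ESC2. ESC2 was the lowest line on both probe sets, but IP36D-3 was next to it on the first and highest on the second. The third Cbx7 probe set lay at 3.20 to 3.64, under the array median.

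Rnf2, the catalytic subunit of PRC1, was lowest in R1. It read 10.20, 10.27 and 10.15 in IP14D-1, 10.08, 10.21 and 9.94 in IP14D-101, 10.60, 10.59 and 10.49 in IP20D-3 and 10.38, 10.45 and 10.39 in IP36D-3, against 9.74, 9.93 and 9.69 in R1 and 10.30, 10.49 and 10.44 in ESC2. Each array of R1 was below each array of the other 5 lines. All 4 iPS lines were called above R1, by 0.29 in IP14D-101 to 0.77 in IP20D-3. In IP14D-101 the call was lost in 4 of the fits that left out an array (adjusted p up to 0.14). Compared with ESC2, R1 was lower (-0.62 ± 0.09, adjusted p = 1.24e-05), as was IP14D-101 (-0.33, adjusted p = 0.00421), and the other 3 iPS lines did not pass. The order of level was IP20D-3, ESC2, IP36D-3, IP14D-1, IP14D-101 and R1. Neighbours in it did not differ, except that IP14D-101 was above R1 (adjusted p = 0.0304). The second bright probe set, 1451519_at, did not share the fall in IP14D-101, which averaged 9.94 there beside 9.96 in ESC2 and 9.78 in R1. R1 was again the lowest line on it, but lay much closer to ESC2 than on the representative. Eed and Rnf2 ran in much the same order of lines (Pearson r = 0.91 over 6 line means). The lines lowest for both, R1 and IP14D-101, also had the lowest actin ratios (1.13 and 1.14) and 18S signals (at most 60.2), whose part in this was not tested.

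The dimmer Rnf2 probe set 1448042_s_at had the widest range of all 32. It averaged 4.48 ± 0.15 in IP14D-1, 4.82 ± 0.12 in IP14D-101, 6.11 ± 0.16 in IP20D-3, 6.41 ± 0.13 in IP36D-3, 4.82 ± 0.17 in R1 and 5.58 ± 0.078 in ESC2 (SD, n = 3 each). From the lowest to the highest line this was 1.93, or 3.82-fold, a wider range than on 96.0% of all probe sets. All 5 lines were called against ESC2: IP14D-1 (-1.10), IP14D-101 (-0.76) and R1 (-0.76) lower, IP20D-3 (0.53) and IP36D-3 (0.83) higher. On the bright probe sets 1424873_at and 1451519_at the lines stayed within 0.77 and 0.34 of each other, so IP20D-3 and IP36D-3 stand well above ESC2 on the dim probe set alone. The last Rnf2 probe sets, 1448041_at and 1448043_x_at, spanned 0.15 and 0.38.

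**Figure D2:**
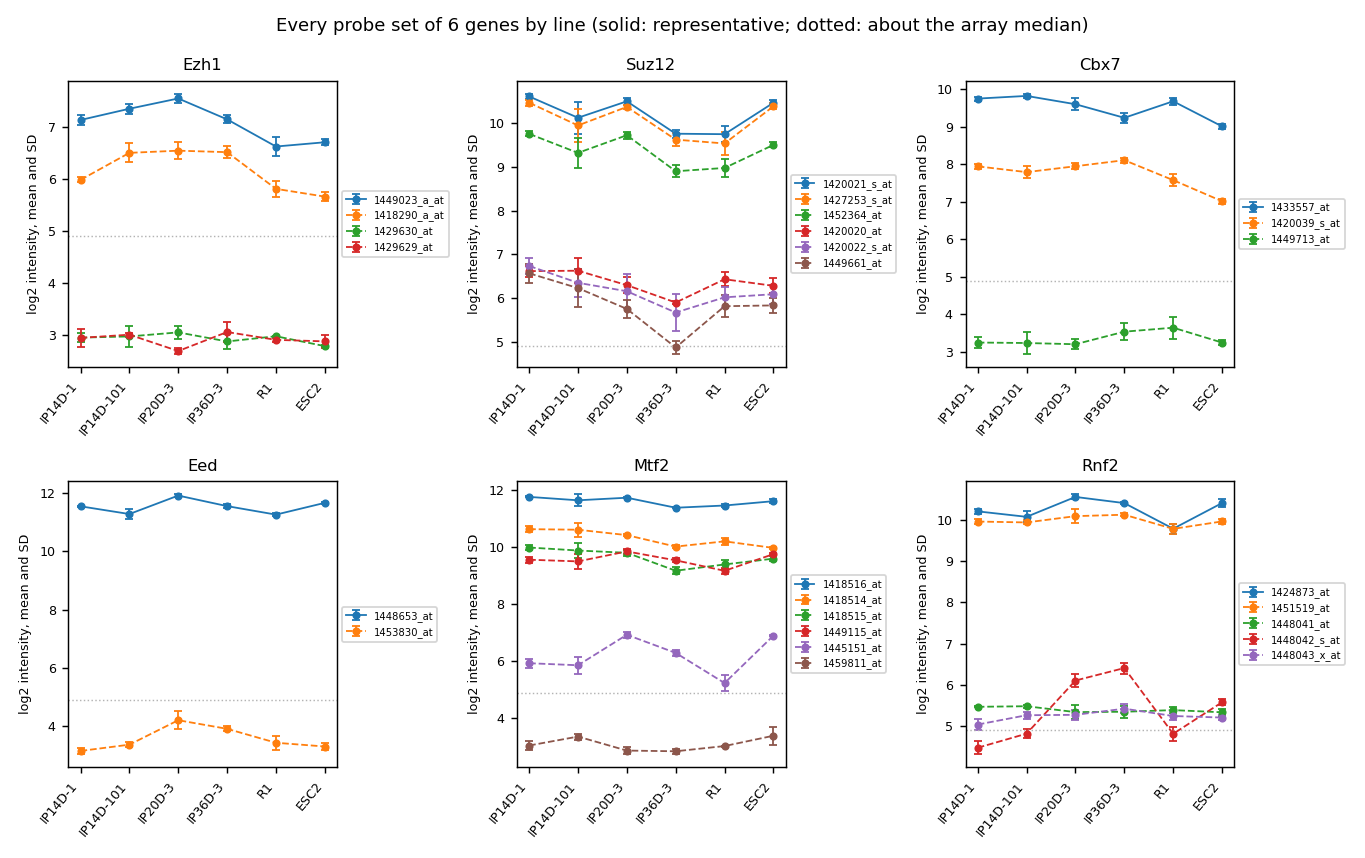
Line means (points) with SD over 3 arrays (bars) of every probe set of 6 of the genes, in log2 intensity; the solid line is the representative probe set and the dotted line lies at about the array median. The 3 bright Suz12 probe sets run in parallel, while 1445151_at of Mtf2 and 1448042_s_at of Rnf2 span 1.69 and 1.93 between lines, where the brighter probe sets of both genes span at most 0.81.

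Counted together against ESC2, 3 members were higher and 0 lower in IP14D-1, where 19.3% of all genes were called higher, 18% lower and 37.3% either way. In IP14D-101, 4 were higher and 3 lower, against 33.4% and 20.2% of all genes (53.6% either way). In IP20D-3 the counts were 4 higher and 1 lower (background 25.2% and 20.4%, together 45.6%), in IP36D-3 2 higher and 1 lower (24.4% and 12.2%, together 36.6%), and in R1 2 higher and 3 lower (34.1% and 19.1%, together 53.3%). Genes as bright as most members were called more often: of genes with a mean of at least 6, 58.2% were called in either direction in IP14D-1, 71.7% in IP14D-101, 65.8% in IP20D-3, 56.2% in IP36D-3 and 70.1% in R1. The members' shares of calls, 3, 7, 5, 3 and 5 of 9, are near or below these shares, so their counts are no result about the members. The members' median difference from ESC2 was 0.15 in IP14D-1, 0.05 in IP14D-101, 0.15 in IP20D-3, -0.00 in IP36D-3 and -0.08 in R1, beside medians of -0.02, 0.05, 0.04, 0.12 and 0.05 over genes with a mean of at least 6. All of these comparisons share the 3 ESC2 arrays, so a gene high or low in ESC2 appears in each of them.

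**Figure D3:**
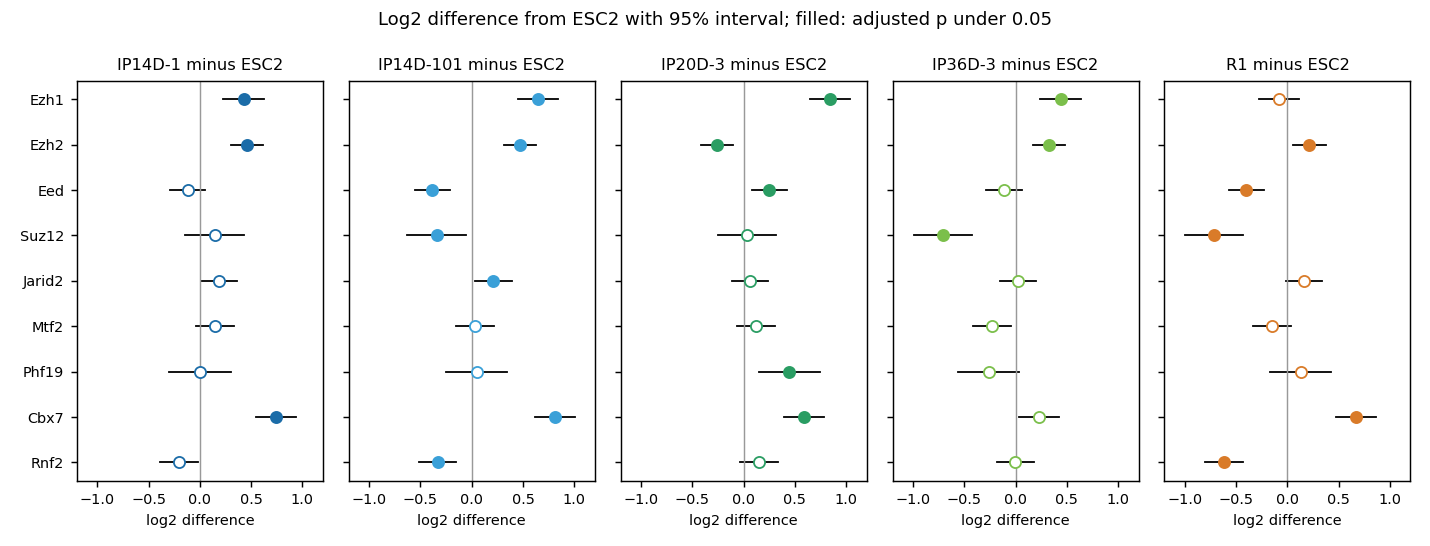
Log2 difference of each line from ESC2 for the 9 genes (points), with 95% intervals (bars); filled points passed an adjusted p under 0.05. Ezh1 is filled on the positive side in all 4 iPS panels and near 0 in the R1 panel, Ezh2 is negative in IP20D-3 alone, and Suz12 is negative in IP14D-101, IP36D-3 and R1.

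Set against R1, 6 members were higher and 0 lower in IP14D-1, where 13.5% of all genes were higher and 24.6% lower. These were Eed, Ezh1, Ezh2, Mtf2, Rnf2 and Suz12. IP14D-101 had 3 higher and 0 lower members (background 10.6% each way), IP20D-3 5 higher and 1 lower (24.3% and 35.3%), and IP36D-3 3 higher and 2 lower (22.7% and 27.3%). Of genes with a mean of at least 6, 22.1% were higher and 34.8% lower in IP14D-1, 16.9% and 15.1% in IP14D-101, 38.5% and 36.5% in IP20D-3, and 38.4% and 27.2% in IP36D-3. Ezh1 and Rnf2 were higher than R1 in all 4. Between the iPS lines, IP20D-3 and IP36D-3 differed in the most members: Cbx7, Eed, Ezh1, Mtf2, Phf19 and Suz12 were higher in IP20D-3 and Ezh2 was lower, against a background of 15% and 20.1%. IP14D-1 had 2 members above IP14D-101, Eed and Suz12, and 0 below (background 13.9% and 23.1%). Both lost their call without array 3 of IP14D-101, when the difference was 0.16 for Eed (adjusted p = 0.111, against 0.27 with it) and 0.28 for Suz12 (adjusted p = 0.0541, against 0.49 with it). IP14D-1 had 1 above IP20D-3 and 4 below (20.8% and 23.1%), and 3 above IP36D-3 and 0 below (16% and 23.8%). IP14D-101 had 1 member above IP20D-3 and 4 below (34.4% and 23.8%), and 3 above IP36D-3 and 2 below (25.2% and 21.9%). Over these 6 pairs of iPS lines, 19.9% to 36.2% of genes with a mean of at least 6 were called higher and 31.1% to 39.8% lower.

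As cell types, the 4 iPS lines were compared with the 2 ES lines over line means, because the 3 arrays of 1 line speak for that line only. No member was called by limma, and neither was any of the 18193 genes (0%). At an unadjusted p under 0.05, 1451 of 45037 probe sets and 3 of the members' 32 passed. The 3 are both brighter Ezh1 probe sets and 1420039_s_at of Cbx7, and the same 3 had every iPS line mean above both ES line means. On representative probe sets, Ezh1 alone of the 9 members met that separation. It is met by 5.01% of all genes in the same direction and by 4.88% in the opposite direction. Ezh1 averaged 0.63 ± 0.16 (SE) higher in iPS lines, with an unadjusted p of 0.00669 and an adjusted p of 1. An exact two-sided permutation test of the lines gave p = 0.133, which is the smallest that 4 lines against 2 allow. The second Ezh1 probe set and 1420039_s_at of Cbx7 were each 0.65 higher in iPS lines, with the same exact permutation p. The brighter, representative Cbx7 probe set was 0.26 higher, with an exact permutation p of 0.4. Line and strain are partly confounded, as R1 and IP14D-101 carry 129 labels. Within the B6 x D2 F1 label alone, a comparison added after seeing the data, the mean of 3 iPS lines exceeded ESC2 by 0.57 for Ezh1 (adjusted p = 1.07e-05) and by 0.69 on its second probe set. There 3 of 9 members were higher, Ezh1, Ezh2 and Cbx7, and 0 lower, against 24.5% and 16.6% of all genes. These counts are near those shares and are no result about the members. Ezh2 was higher only as a mean of lines that disagreed (0.18), since IP20D-3 was below ESC2 (-0.26). The spread was taken from the arrays of all lines, R1 and IP14D-101 included, and not from the lines. The p-values of that comparison therefore leave out how far lines of a cell type differ, and do not test cell type. ESC2 was the only ES line compared. A difference of ESC2 itself from other ES lines cannot be told apart from a difference of cell type in that comparison.

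Outside the 9 genes, the other subunits and partners were read from lists. Of 7 other PRC2 subunits, all measured, 4 rose and 1 fell relative to ESC2 in IP14D-1, 3 rose and 2 fell in IP14D-101, 3 rose and 1 fell in IP20D-3, 2 rose and 1 fell in IP36D-3, and 3 rose and 1 fell in R1. Of all genes, 37.3%, 53.6%, 45.6%, 36.6% and 53.3% were called either way in these comparisons, in the same order, and of genes with a mean of at least 6, 58.2%, 71.7%, 65.8%, 56.2% and 70.1%. The counts of this short list are near those shares. Its median differences were 0.32, 0.22, 0.33, 0.02 and 0.19. Epop, which links PRC2 to elongin, reached larger differences than any of the 9 members. It averaged 10.62 ± 0.062 in IP14D-1, 10.65 ± 0.049 in IP14D-101, 9.40 ± 0.125 in IP20D-3, 8.72 ± 0.088 in IP36D-3, 10.96 ± 0.082 in R1 and 8.47 ± 0.062 in ESC2 (SD, n = 3 each). The differences from ESC2 were 2.15, 2.18, 0.94 and 0.25 in these iPS lines and 2.50 in R1, all called, with adjusted p between 4.61e-13 and 0.0253. Aebp2, which accompanies Jarid2, was higher in IP14D-1 (0.61) and IP20D-3 (0.93) on its brightest probe set. Its other probe sets disagreed in part: 1437743_at averaged 7.97 in IP14D-1, 8.51 in IP20D-3 and 6.46 in IP14D-101, against 8.17 in ESC2. Lcor, a locus that also encodes a PRC2 cofactor, was lower in IP14D-101 (-1.37), IP36D-3 (-0.97) and R1 (-1.75). The histone-binding subunits Rbbp4 and Rbbp7 have similar sequences and Rbbp4's brightest probe set is of the kind that can bind related transcripts, so their differences of at most 0.40 are uncertain. Another Rbbp4 probe set, 1454791_a_at, averaged 8.20 in IP14D-1 and 9.48 in ESC2, the opposite direction, while the brighter 1454875_a_at was above ESC2 (9.91) in every line, with 10.35 in IP14D-1 and 10.98 in IP20D-3.

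Of 23 measured PRC1 subunits beyond Cbx7 and Rnf2, 10 rose and 3 fell relative to ESC2 in IP14D-1, 11 rose and 8 fell in IP14D-101, 7 rose and 9 fell in IP20D-3, 6 rose and 4 fell in IP36D-3, and 12 rose and 6 fell in R1. Of genes with a mean of at least 6, 27.6%, 38.7%, 36.4%, 38.3% and 38% rose in these lines, in the same order, and 30.6%, 33%, 29.4%, 17.9% and 32.1% fell. The list's median differences were 0.28, 0.19, -0.10, 0.07 and 0.31. Pcgf2 (Mel18), the partner of Rnf2 in Cbx-containing PRC1, averaged 8.41 in IP14D-1, 8.42 in IP14D-101, 7.29 in IP20D-3, 6.91 in IP36D-3, 8.37 in R1 and 6.52 in ESC2. It was called higher than ESC2 in all 5 lines, by 0.40 to 1.90, and its second probe set was likewise lowest in ESC2. Ring1, the paralog of Rnf2, was also called higher in all 5 lines, by 0.63 in IP20D-3 to 1.52 in IP14D-101. Pcgf1, of the PRC1 form without Cbx proteins, was higher by 0.50 in IP20D-3 to 1.41 in IP36D-3. Bmi1, the paralog of Pcgf2, was lower in IP14D-101 (-0.95) and R1 (-0.74). Not all subunits were lowest in ESC2. Mga and Phc3 were lowest in R1 and highest in IP20D-3 on their brightest probe sets. Mga averaged 8.09 in R1, 8.88 in ESC2 and 9.97 in IP20D-3, and Phc3 averaged 5.46, 6.10 and 7.12. Epop and Pcgf2 therefore shared an order of lines, with IP14D-1, IP14D-101 and R1 high, IP20D-3 between and IP36D-3 and ESC2 low. The 18S ribosomal RNA signal splits the lines in the same way, with 37.8 to 88.5 in IP14D-1, IP14D-101 and R1 and 160.6 to 539.5 in IP20D-3, IP36D-3 and ESC2, and its part in these differences was not tested. In none of these 4 genes (Epop, Pcgf2, Ring1, Pcgf1) did all iPS line means lie above both ES lines: for Pcgf1 they ran from 6.44 to 7.35, around the 6.64 of R1.

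**Figure D4:**
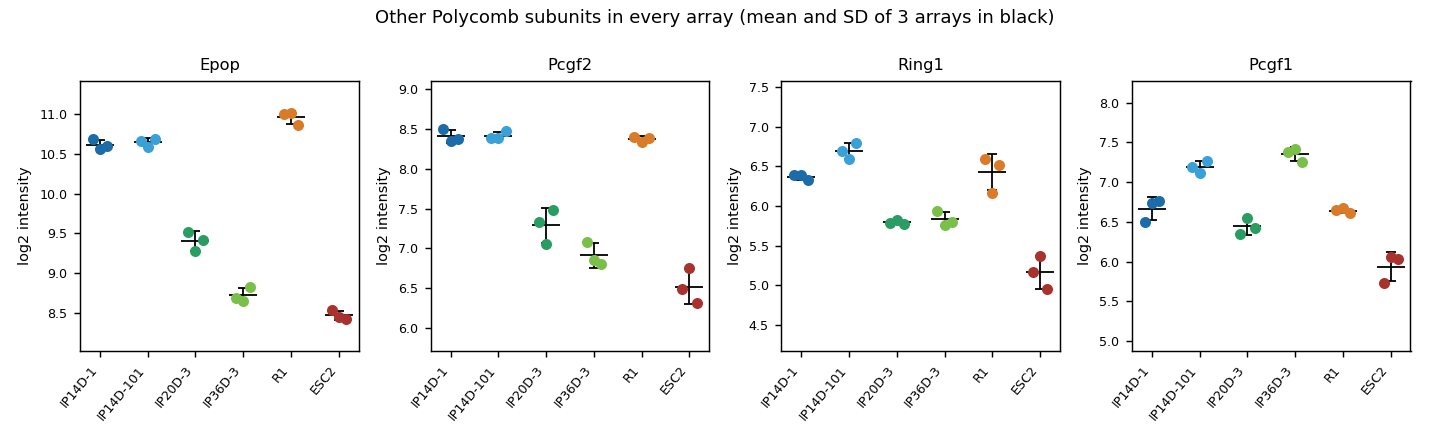
Log2 intensity of Epop, Pcgf2, Ring1 and Pcgf1 in every array (points), with the mean and SD of 3 arrays in black; iPS lines stand left of R1 and ESC2. ESC2 is the lowest line in each panel, and Epop and Pcgf2 are high in IP14D-1, IP14D-101 and R1.

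Of 7 genes for removal of the H3K27 and H2A marks, 0 rose and 3 fell relative to ESC2 in IP14D-1, 0 rose and 6 fell in IP14D-101, 1 rose and 6 fell in IP20D-3, 0 rose and 2 fell in IP36D-3, and 0 rose and 5 fell in R1. Falls were called for 18%, 20.2%, 20.4%, 12.2% and 19.1% of all genes in the same order, and for 30.6%, 33%, 29.4%, 17.9% and 32.1% of genes with a mean of at least 6. The list's median differences were -0.16, -0.34, -0.29, -0.01 and -0.60. Usp16, an H2A deubiquitinase, was lower in all 5 lines, by -0.68 in IP14D-1 to -1.05 in IP14D-101. Kdm6b, an H3K27 demethylase, was lower on its brightest probe set in all 5, by -0.31 in IP14D-1 to -0.95 in IP20D-3. A second Kdm6b probe set at a similar level, 1447612_x_at, averaged 8.06 in IP14D-1 and 7.69 in IP20D-3, against 7.72 in ESC2, and does not share the fall. Kdm6a, the other demethylase, was higher in IP20D-3 (0.50) and lower in IP14D-101 (-0.32). A second Kdm6a probe set, 1427235_at, averaged 8.17 in IP20D-3 and 8.66 in ESC2, the opposite direction.

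Developmental regulators that PRC2 is known to hold silent in ES cells were read from a list of 70 measured genes, of which 39 to 50 were under the array median, depending on the line. Relative to ESC2, 6 rose and 8 fell in IP14D-1, 19 rose and 8 fell in IP14D-101, 2 rose and 21 fell in IP20D-3, 5 rose and 11 fell in IP36D-3, and 22 rose and 9 fell in R1. Of all genes, 19.3%, 33.4%, 25.2%, 24.4% and 34.1% rose in these lines, in the same order, and 18%, 20.2%, 20.4%, 12.2% and 19.1% fell. The list's medians were 0.03, 0.20, -0.23, -0.09 and 0.22. The fibroblast markers also fell in IP20D-3, where 2 of 29 rose and 19 fell (median -0.44), and in IP36D-3, where 3 rose and 16 fell (median -0.35). Of the same 29, 10 rose and 3 fell in IP14D-1, 4 rose and 10 fell in IP14D-101, and 11 rose and 8 fell in R1. The part of this in the regulators' counts was not tested. The largest rises were in IP14D-101, where Gata6 (3.58), Gata4 (2.63), Sox7 (2.34) and Sox17 (2.11) were higher, all of them also markers of primitive endoderm, whose list was high in that line. The largest falls were those of Olig1 and Olig2, neural regulators, in R1. Olig1 averaged 3.90 in R1 and 8.57 in ESC2, and Olig2 3.10 in R1 and 7.16 in ESC2, while both lay between 6.90 and 9.22 in the 4 iPS lines. Cdkn2b, a cell-cycle inhibitor, was lower than ESC2 in IP14D-101 (-1.09), IP20D-3 (-2.19), IP36D-3 (-1.52) and R1 (-0.75).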

How the data were processed

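Total RNA of 6 mouse pluripotent cell lines, 3 arrays each, had been labelled with biotin and hybridised to Affymetrix arrays. The deposited values are linear intensities per probe set, which the series' design text credits to RMA of Bioconductor, with no version stated. RMA is a method that corrects background, quantile-normalises arrays and summarises probes into probe sets. Array medians lay between 29.2 and 30.5. Here the intensities were taken to log2. Precision is set by the 3 arrays per line.

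Of 45101 probe sets, 64 controls were left out and 45037 tested. Symbols came from the platform annotation (34945 probe sets with 1 symbol, 932 with several, 9160 with none), and 34741 were found by gene identifier in a RefSeq table of GRCm38.p6, with 0 changed. No probe set with several symbols holds a member.

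Line differences came from 1 model in limma 3.58.1 (R 4.3.3) with a mean per line over 18 arrays (12 residual degrees of freedom). For iPS against ES, the 4 and 2 line means were the samples. P-values were adjusted by Benjamini-Hochberg over the 45037 probe sets, and background shares were counted over 1 representative probe set for each of 18193 genes. The line model was tried on simulated arrays with independent noise and shifts in IP20D-3. The comparison of iPS with ES lines was not tried in this way. Python 3.11.15 with pandas 2.3.3, numpy 2.4.6, scipy 1.17.1 and matplotlib 3.10.9 prepared tables, exact tests and plots.

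The members, the gene lists and the tests were chosen with earlier results of these data known. The text describes all 9 members, some of their dim probe sets only as a group. From the other lists, up to 4 called genes with the largest differences per comparison were candidates (mean of at least 6 in the higher line). Only some of these candidates are named, so the named genes do not stand for their lists. Alternatives were a repeated quantile normalisation, arrays centred on their medians, a filter at the median level, 1 probe set per gene, trended and robust variance, array weights, the replicate number as a block and leaving out each array.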

Additional observations from a re-analysis of the deposited data

Results flagged for a closer look

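Over the 32 member probe sets, the means of the 4 iPS lines were checked for a line far from the other 3, and 3 sets had a gap that exceeds Dixon's 95% critical value. Chance gives about 1 such set in 20. On the second Ezh1 probe set (1418290_a_at), IP14D-1 stood low at 5.98, while the other 3 iPS lines lay between 6.50 and 6.54. The brighter Ezh1 probe set did not set IP14D-1 apart in this way. On Mtf2 probe set 1449115_at, IP20D-3 stood high at 9.84, while the others lay between 9.49 and 9.55. On Cbx7 probe set 1449713_at, which is under the array median, IP36D-3 stood high at 3.54, while the others lay between 3.20 and 3.25.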

How the results depend on the processing

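The number of members called against ESC2 was 3 in IP14D-1 and became 5 with the filter at the median level, with trended and robust variance and with array weights. In IP36D-3 it was 3 and became 5 under the same 3 settings and with 1 probe set per gene. Under these settings the share of all genes called moved as well, to between 38.4% and 59.7% in IP14D-1 (37.3% before) and between 38.1% and 57.5% in IP36D-3 (36.6% before). Of the 9 members, 0 differed between iPS and ES lines, also with any single line left out. Within the B6 x D2 F1 label 3 were called against ESC2, where arrays and not lines served as the spread. In that comparison Mtf2 probe set 1445151_at reversed, from 0.19 to -0.51 (adjusted p = 0.00158). The ES reference is not the same in both, as R1 (5.24) is left out and ESC2 (6.89) stands alone. Leaving out each array gave 8 to 8 members for the F test, 3 to 3 in IP14D-1, 5 to 7 in IP14D-101, 3 to 5 in IP20D-3, 3 to 4 in IP36D-3, 4 to 5 in R1, 0 to 0 between cell types and 42 to 48 calls over the remaining line pairs (47 with all arrays). The count in IP20D-3 was 3 without its array 2 or 3 or without array 1 of ESC2. With a repeated quantile normalisation, with trended and robust variance and with array weights, the F test called all 9 members. Same-numbered arrays of different lines were not taken as pairs, since the labels state no pairing. The data do not speak against one: 17 of 45 correlations of their deviations passed 0.1, with a range of -0.38 to 0.52 and a median of 0.087. With the replicate number as a block, the counts were 8 for the F test, 3, 6, 5, 4 and 5 against ESC2 in IP14D-1, IP14D-101, IP20D-3, IP36D-3 and R1, and 49 over the remaining pairs. Of the 45 differences from ESC2, called or not, 43 stayed on their side of the threshold under that block, 1 lost its call (Jarid2 in IP14D-101, adjusted p = 0.052) and 1 gained one (Mtf2 in IP36D-3, adjusted p = 0.0405), and 13 of 18 arrays were closest to arrays of their own number, which is a hint from the data and not the design. With 3 arrays per line and differences mostly under 2-fold, calls with adjusted p just under 0.05 (Suz12 and Jarid2 in IP14D-101, Eed in IP20D-3, Ezh2 in R1) turned on single arrays, and probe sets under the array median carry little signal over background.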

Other observations

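Methyltransferases of the Trithorax group, which place the opposing H3K4 mark, were read in the same way. Of 12 subunits, 7 rose and 1 fell relative to ESC2 in IP14D-1, 6 rose and 0 fell in IP14D-101, 3 rose and 3 fell in IP20D-3, 1 rose and 3 fell in IP36D-3, and 8 rose and 1 fell in R1. Rises were called for 19.3%, 33.4%, 25.2%, 24.4% and 34.1% of all genes in the same order, and falls for 18%, 20.2%, 20.4%, 12.2% and 19.1%. Among genes with a mean of at least 6, the shares were 27.6%, 38.7%, 36.4%, 38.3% and 38% for rises. For falls they were 30.6%, 33%, 29.4%, 17.9% and 32.1%. Kmt2b, which methylates promoters that also carry the H3K27 mark, averaged 9.13 in IP14D-1, 9.30 in IP14D-101, 7.87 in IP20D-3, 8.05 in IP36D-3, 9.20 in R1 and 8.20 in ESC2. It was called higher in IP14D-1 (0.93), IP14D-101 (1.10) and R1 (1.00), and lower in IP20D-3 (-0.33). Kmt2d was higher in IP14D-101 (0.82) and R1 (0.68). Men1, a subunit of the Kmt2a and Kmt2b complexes, was lower on its brightest probe set in IP20D-3 (-1.37), IP14D-1 (-0.66) and IP36D-3 (-0.54). Its other probe sets do not share the fall in IP14D-1: 1416348_at averaged 6.91 there and 1443826_x_at 6.56, against 6.83 and 6.51 in ESC2. In IP36D-3 these probe sets split, as 1416348_at averaged 6.90, above ESC2, and 1443826_x_at 6.34, below it. In IP20D-3 both lay below ESC2, at 6.15 and 6.28. Rbbp5, a core subunit, was higher in IP20D-3 (1.2). None of the 12 was called between iPS and ES lines.

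The genes whose representative probe set ran most like each member over the 18 arrays, among 8764 with a mean of at least 6, are given as a description; no member's lines spread widely enough for the rule that was to select members for this, so the names were chosen after their values were seen. They were Apoc1 for Ezh1 (Pearson r = 0.95), Mkrn1 for Ezh2 (0.94), Zfp936 for Eed (0.98), Taok1 for Suz12 (0.96), Elovl6 for Mtf2 (0.96), Ubr4 for Cbx7 (0.98) and Fmr1 for Rnf2 (0.97). Suz12 was the gene second most like Mtf2 (0.91). For Jarid2 (Mycn, 0.79) and Phf19 (Slc66a2, 0.82) the likeness was weaker. The 18 arrays of these correlations fall into 6 lines and share their normalisation.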
